A study of Mus musculus with 27 samples.

Results

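The clustered protocadherin genes of the mouse were examined in mouse embryonic fibroblasts (MEFs), cultured from mid-gestation embryos after removal of the head, the limbs and the viscera. Members were all rows of the deposited gene table whose symbol begins with Pcdha, Pcdhb or Pcdhg. This rule found 25 of the 37310 rows, namely 2 alpha, 22 beta and 1 gamma row, and the rule itself uses no measured value. The RNA-seq libraries fell into 4 groups of 3 replicates, which were female wild-type (WT), female *Firre* KO, male WT and male *Firre* KO MEFs. The KO allele is a germline deletion around *Firre*, an X-linked long non-coding RNA gene with many binding sites for the chromatin factor CTCF, so every cell of a KO embryo carries it. The labels name no other allele and no treatment, and give neither strain nor passage. Hi-C, which measures contacts between pieces of chromatin, came from the WT mouse muscle cell line C2C12, with 2 replicates pooled by the authors. The labels do not say whether replicates came from separate embryos, so the p-values measure only the spread between these libraries, which may be technical.

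Clustered protocadherins are cell surface adhesion proteins of the cadherin family and are best known from neurons, where each cell draws its own combination of isoforms and recognises cells that display the same one. In the alpha and gamma clusters, each variable first exon has its own promoter and is spliced to exons shared by the whole cluster, whereas each beta gene is a single-exon unit without shared exons. CTCF and cohesin fold distant enhancers onto the promoters that are used, and DNA methylation together with the chromatin protein Smchd1 keeps the others silent.

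All members lie on the plus strand of chromosome 18 (build mm9), within a stretch of 912 kb that begins with the alpha cluster and ends with the gamma cluster. The row named *Pcdha11* (chr18:37089939-37347311) merges 10 annotated alpha transcripts that have 10 distinct first exons. The row named *Pcdhgc5* (chr18:37833989-38001527) likewise merges 10 gamma transcripts. Each of these rows is therefore a sum over the transcripts annotated to it and gives no level of a single isoform. Whether these transcripts cover every isoform of a cluster was not examined. *Pcdha3* (chr18:37105801-37108685) is annotated as a gene of its own inside the alpha span. *Pcdhac1*, *Pcdhac2*, *Pcdhgc3* and *Pcdhgc4*, which encode further C-type isoforms, had no row of their own. The beta genes run from *Pcdhb1* at chr18:37424652 to *Pcdhb22* at chr18:37681073, and the annotation calls *Pcdhb20* a pseudogene and the others protein coding. An antisense gene, Gm10545, shares 2790 exonic bases with the alpha row, and the antisense lincRNA Gm16882 shares 1647 with the gamma row. Whether the counting used strand is not given in the sources used here, so reads in these stretches cannot be told apart.

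Libraries held 42986516 to 65454660 expected counts, and the 6 male libraries were all deeper than the female ones. *Firre* had 90 to 129 expected counts in female WT MEFs, 239 to 307 in male WT MEFs and 0 in all 6 KO libraries. The 10 fibroblast markers examined were all measured, with summed levels of 16092 to 23570 CPM (counts scaled to a common library size that the TMM method sets). Macrophage markers were higher in female MEFs. Their summed level was 38.4 to 126 CPM in the female and 7.04 to 15.8 CPM in the male libraries, and all 9 measured markers passed the test in WT and in KO MEFs.

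The gamma row held most of the counts of the 3 clusters in MEFs. Its row, *Pcdhgc5*, had 246, 241 and 244 CPM in the female WT libraries, 263, 265 and 264 in female KO, 298, 296 and 263 in male WT and 272, 274 and 277 in male KO. It made up 92.9% to 95.5% of the member counts of a library, and 95.9% of all tested genes had a lower mean CPM. The 22 beta genes together reached 10.2 to 18.2 CPM, or 3.70% to 5.69% of the member counts. The alpha rows reached 2.01 to 4.47 CPM, or 0.683% to 1.40%. Per kb of merged exon, the mean level of the gamma row was 9.21 CPM, 10.0 times that of the highest beta gene, *Pcdhb17*, and the ratio lay between 8.25 and 14.2 in single libraries. Merged exons add up all transcripts annotated to a row, so dividing by the longest transcript in their place raised the ratio to 50.2.

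**Figure D1:**
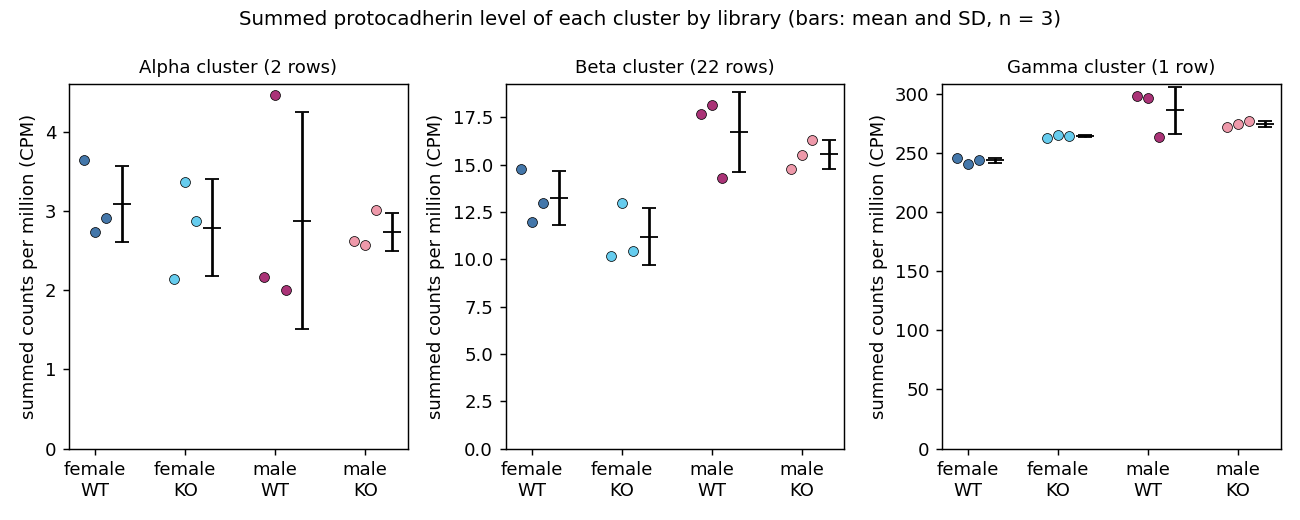
Summed level of the alpha, beta and gamma clusters in CPM (vertical axes start at 0), with 1 point per library and the mean and SD of 3 libraries beside the points. The gamma row sits at 241 to 298 CPM in every group, and 1 male WT library at 4.47 CPM stands above the other alpha values.

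The alpha row was low in every group. *Pcdha11* had 3.64, 2.73 and 2.91 CPM in female WT, 2.14, 3.35 and 2.85 in female KO, 2.17, 4.47 and 2.01 in male WT and 2.59, 2.53 and 3.02 in male KO MEFs. The groups overlapped in every comparison, and male WT replicate 2 held the highest value. *Pcdha3* had 0, 1 and 1 expected counts in female KO, 2, 2.99 and 0 in male KO and 0 in all 6 WT libraries.

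Within the beta cluster the 3 highest levels per kb lay towards the gamma side. The last 7 genes, *Pcdhb16* to *Pcdhb22*, held 62.7% to 74.3% of the per-length beta signal of a library. The 15 genes before them held the remainder. Of this signal *Pcdhb17* held 24.2%, *Pcdhb22* 18.7% and *Pcdhb16* 8.35% as means over the libraries. The border before *Pcdhb16* was not set in advance. *Pcdhb17* was highest in CPM in 11 of the 12 libraries and *Pcdhb22* in 1, and per kb *Pcdhb17* led in 10 and *Pcdhb22* in 2. *Pcdhb17* had 3.11, 2.67 and 2.42 CPM in female WT, 2.08, 3.11 and 2.10 in female KO, 3.75, 4.05 and 2.79 in male WT and 3.05, 3.65 and 3.35 in male KO MEFs. These groups overlapped. *Pcdhb16*, *Pcdhb17* and *Pcdhb22* were the 3 highest beta genes per kb in all 12 libraries, whereas the fourth place changed between libraries. *Pcdhb19* followed in CPM with 0.928 to 1.75 over the libraries, but its annotated exon is the longest of the cluster at 7131 bases, and per kb its mean was 0.194 CPM against 0.921 for *Pcdhb17*, 0.720 for *Pcdhb22* and 0.316 for *Pcdhb16*.

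**Figure D2:**
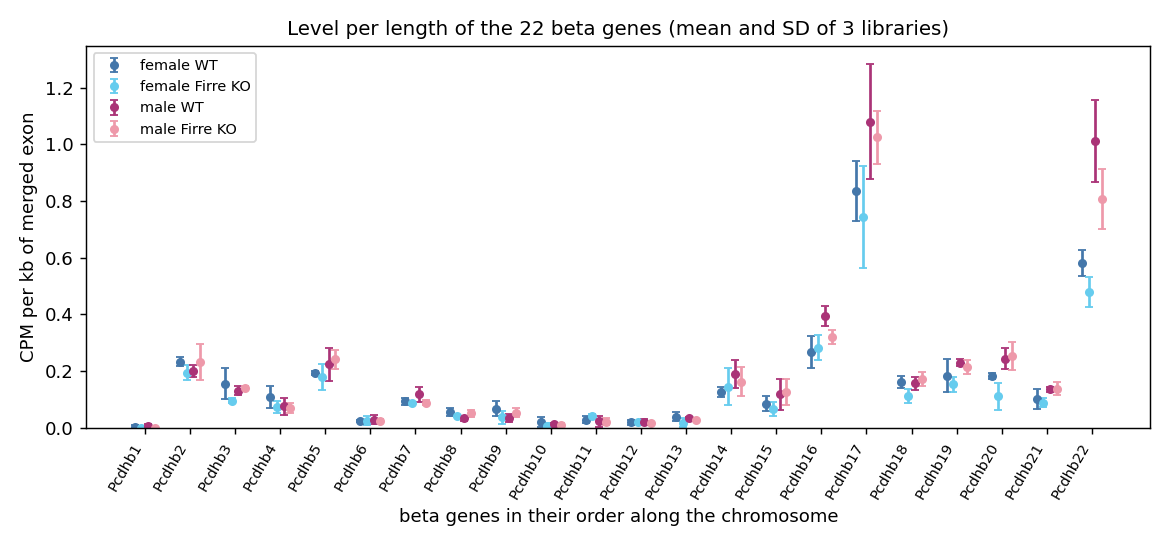
Level of each beta gene in CPM per kb of merged exon, in the order of the genes along the chromosome, as the mean and SD of 3 libraries for each of the 4 groups. *Pcdhb17* and *Pcdhb22* stand above all other beta genes in each group, and *Pcdhb1*, *Pcdhb6* and *Pcdhb8* to *Pcdhb13* lie near 0.

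Over the 22 beta genes, Spearman's rho between place along the cluster and mean CPM per kb was 0.43. However, *Pcdhb2* (0.215 CPM per kb) and *Pcdhb5* (0.209) near the start exceeded several genes near the end. These were *Pcdhb18* (0.151), *Pcdhb19* (0.194), *Pcdhb20* (0.197) and *Pcdhb21* (0.116). The genes share libraries and neighbouring sequence, and rho is given as a description. With exon GC content rho was -0.25. The ranking of the beta genes was alike in all libraries, with rho between 0.89 and 0.98 for pairs of libraries of 1 group and between 0.89 and 0.99 for pairs from different groups.

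The beta genes resemble each other in sequence, which bears on how reads were assigned. RSEM, the counting program, divides a read that fits several genes, so an expected count that is not whole marks a shared read. Of the 300 member values, 71 were not whole within a tolerance of 0.001, or 23.7%, against 15.8% over all genes. Among values above 0, where a shared read can show, the share was 25.5% in members and 30.2% over all genes. The gamma row was not whole in 12 of 12 libraries. *Pcdhb17*, *Pcdhb20* and *Pcdha11* were not whole in 8, while 8 beta genes, *Pcdhb16* and *Pcdhb22* among them, were whole in every library. The sum over the beta cluster was whole within 0.03 in 9 of 12 libraries although 2 to 8 single beta values per library were not. In those libraries the division thus stayed almost wholly inside the beta cluster.

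Between 0% (*Pcdhb1*) and 12% (*Pcdhb12*) of the 50-base words in the exon of a beta gene recur in another member. *Pcdhb11* and *Pcdhb12* share most with each other, as do *Pcdhb7* and *Pcdhb9*, and *Pcdhb19* and *Pcdhb20*. No such word of the gamma row recurs in another member. The read length is not given in the sources used here.

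Of the 25 members, 16 passed the filter on low counts and were tested. The other 9 were *Pcdha3* and 8 beta genes, *Pcdhb1*, *Pcdhb6* and *Pcdhb8* to *Pcdhb13*, with mean levels of 0.00453 to 0.146 CPM and at most 12.5 expected counts in a library. DESeq2 and the edgeR fit without a filter, which included them, called 0 of these 9 in any comparison, and at an unadjusted p under 0.05 only *Pcdha3* passed, without a filter, in males and in the average over the sexes, higher in KO in both (adjusted p of 1.00 and 0.99 in edgeR). *Pcdhb8*, at 3 to 8 expected counts, did not overlap between female WT and female KO (lower in KO) or between female and male WT (higher in females), and neither did *Pcdhb9* in the latter. A row passed only where its level was high enough, so the counts below describe the tested members and not the whole family.

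**Figure D3:**
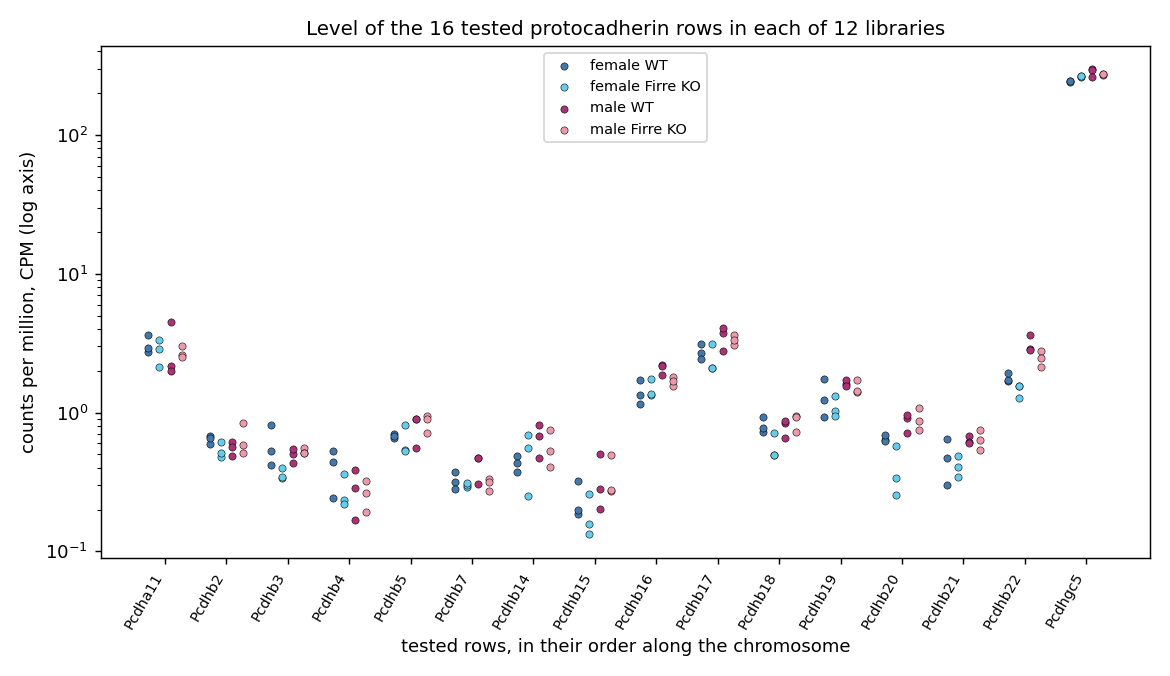
Level in CPM (log axis) of the 16 tested rows in each of the 12 libraries, coloured by group, in their order along the chromosome. *Pcdhgc5* lies near 267 CPM, and the other 15 rows lie between 0.133 and 4.47 CPM.

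The first question was whether deletion of *Firre* changed the clusters. No member was called in female MEFs, where a call required a log2 fold change beyond 1 in either direction and an adjusted p under 0.01 in edgeR's quasi-likelihood test, and the same thresholds called 0.0065% of all 15387 tested genes. DESeq2 also called 0 members. At an unadjusted p under 0.05, 4 of 16 members passed, against 7.55% of all genes. These were *Pcdhb3*, *Pcdhb18* and *Pcdhb20*, lower in KO, and *Pcdhgc5*, higher in KO. KO and WT values did not overlap in 5 of 16 members, these and *Pcdhb22*, against 19.2% of all genes. The median log2 fold change of the tested members was -0.21, with 13 of 16 negative, while over all genes it was 0.00 with 50.1% negative. In the same comparison 0 markers of other cell types or of fibroblasts were called in edgeR. Estimates were negative for 6 of 7 epithelial markers (median log2 fold change -1.22), 6 of 7 neuronal (-0.26), 8 of 10 fibroblast (-0.14), 5 of 7 glial and neural crest (-0.12), 4 of 5 endothelial (-0.14) and 7 of 9 macrophage markers (-0.02), and for 3 of 8 muscle markers (0.05). Female WT replicate 3 stood apart in the epithelial list, with 14.3 CPM of *Krt5*, a basal keratin gene, against 0.988 and 2.29 CPM in the other female WT libraries. Without it the epithelial median was -0.30 with 5 of 7 negative, and the neuronal median turned to 0.08. The lowest medians with single libraries left out were -2.21 for epithelial, -0.42 for neuronal and -0.32 for fibroblast markers. The fibroblast median turned to 0.01 without female WT replicate 1 and to 0.02 without female KO replicate 1. In the other lists too the sign of the median rested on single libraries. With single libraries left out it ran from -0.68 to 0.20 for glial and neural crest, from -0.59 to 0.02 for endothelial, from -0.70 to 0.28 for macrophage and from -0.49 to 0.93 for muscle markers. The glial and neural crest median was lowest without female KO replicate 1 and highest without female KO replicate 3. The macrophage median was lowest without female KO replicate 2 and highest without female KO replicate 3. The endothelial and muscle medians were highest without female WT replicate 3, and lowest without female WT replicate 2 and female KO replicate 1 respectively. The part of these cell types in the result was not tested.

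*Pcdhgc5* was higher in every female KO library than in every female WT library, at 264 ± 0.97 against 244 ± 2.38 CPM (mean ± SD, n = 3 each). The log2 fold change was 0.12 (95% interval 0.01 to 0.22), with an edgeR adjusted p of 0.59. In males the direction was the opposite, at 274 ± 2.59 CPM in KO and 286 ± 19.5 in WT, and the groups overlapped, with a log2 fold change of -0.06. This value was -0.11 without male WT replicate 3 and -0.03 without either of male WT replicates 1 and 2. The KO effect in females minus that in males was 0.18 on the log2 scale for *Pcdhgc5*, with an unadjusted p of 0.017 in edgeR's fit and an adjusted p of 1.00, and no member had a smaller p in that contrast.

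*Pcdhb3* had 0.818, 0.420 and 0.527 CPM in female WT and 0.340, 0.343 and 0.398 in female KO MEFs, without overlap. These are 15 to 35 expected counts in a library, and the log2 fold change of -0.70 ± 0.26 (SE) had an edgeR adjusted p of 0.59, the lowest of the members. Without female WT replicate 1 the log2 fold change of *Pcdhb3* was -0.40. *Pcdhb18* was at 0.935, 0.729 and 0.772 CPM in female WT and 0.498, 0.493 and 0.708 in female KO, with a log2 fold change of -0.52 ± 0.22 and an edgeR adjusted p of 0.64. Neither gene was lower in male KO than in male WT, with log2 fold changes of 0.09 and 0.14.

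In male MEFs 0 members were called in edgeR and in DESeq2, against 0.0065% of all genes in edgeR. At an unadjusted p under 0.05 in edgeR 0 members passed, against 2.06% of all genes. The median log2 fold change was -0.07 over 16 members, with 9 negative, while 52.3% of all genes were negative. KO and WT did not overlap in 2 members, *Pcdhb16* and *Pcdhb22*, both lower in KO, against 5.3% of all genes in either direction and 2.52% that were lower. The median turned to 0.08 without male WT replicate 2.

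*Pcdhb22* was lower in KO than in WT in each sex, in all 3 libraries against all 3. It had 1.68, 1.72 and 1.94 CPM in female WT, 1.56, 1.57 and 1.28 in female KO, 3.61, 2.89 and 2.81 in male WT and 2.79, 2.48 and 2.14 in male KO MEFs. The log2 fold change was -0.28 (95% interval -0.65 to 0.09) in females and -0.33 (-0.68 to 0.02) in males. Averaged over the sexes it was -0.30 (-0.56 to -0.05), with an unadjusted p of 0.019 in edgeR's fit and an adjusted p of 0.77. No member was called in that average in edgeR, which called 0.0065% of all genes. *Pcdhb22* was the only 1 of 16 members at an unadjusted p under 0.05, against 6.24% of all genes. DESeq2 called 0 members too.

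For *Pcdhb17*, the highest beta gene, the 95% interval of the log2 fold change was -0.61 to 0.28 in females and -0.51 to 0.35 in males. For the alpha row it was -0.81 to 0.51 and -0.74 to 0.55. The interval of the deeply counted gamma row ran from -0.16 to 0.04 in males. No member and 0% of all genes were called when the female and male KO effects were set against each other, and DESeq2 also called 0 members. At an unadjusted p under 0.05 in edgeR, 1 of 16 members passed there, against 3.19% of all genes.

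**Figure D4:**
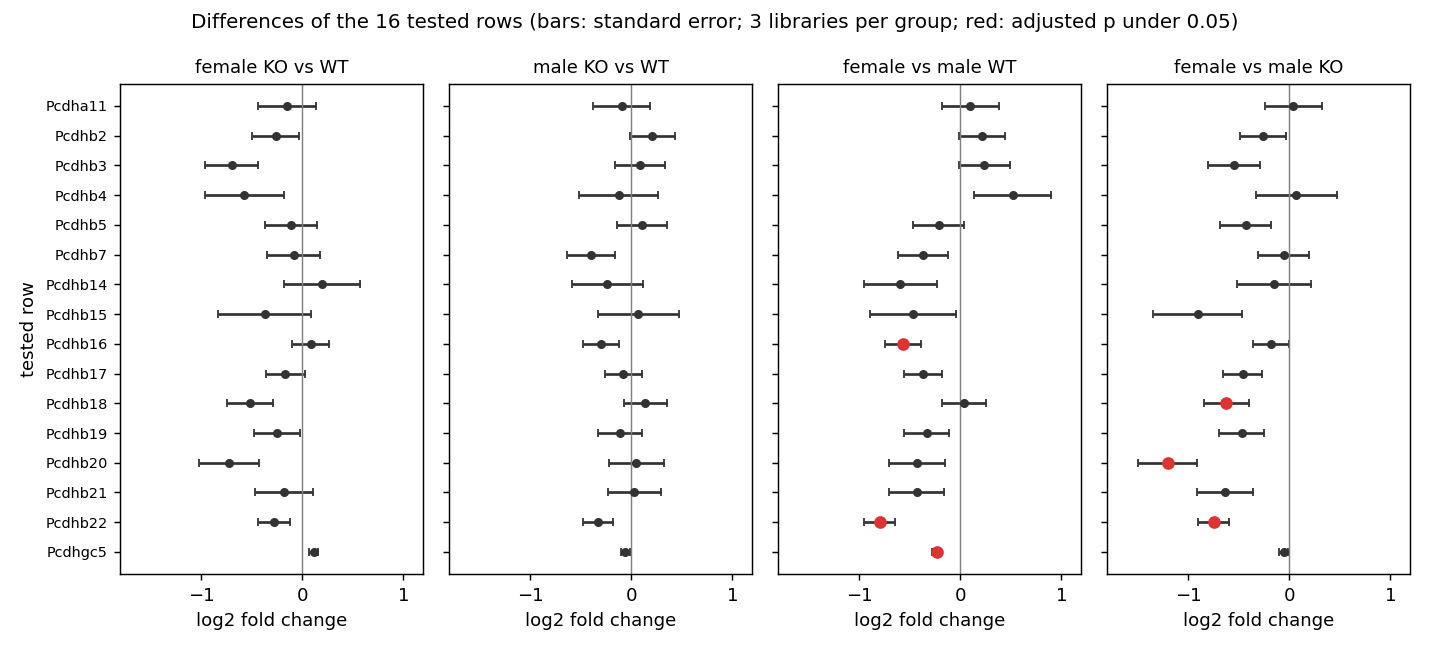
Log2 fold change and standard error of the 16 tested rows in 4 comparisons of 3 against 3 libraries, with an adjusted p under 0.05 in red. No row is red for the KO, and 3 rows are red in each comparison of female with male MEFs, all of them lower in female MEFs.

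Summed over each cluster, the log2 ratio of KO to WT was -0.15 in females and -0.07 in males for alpha, -0.24 and -0.10 for beta, and 0.12 and -0.06 for gamma. The alpha ratio in males turned to 0.39 without male WT replicate 2 and was -0.28 without male WT replicate 3. In females it turned to 0.01 without female KO replicate 1, and was -0.01 without female WT replicate 1 and -0.30 without female KO replicate 2. The beta ratio ran from -0.36 (without female KO replicate 2) to -0.16 (without female WT replicate 1) in females, and from -0.21 (without male WT replicate 3) to -0.04 (without male WT replicate 2) in males. Over the beta genes with whole counts in every library it was -0.24 in females and -0.22 in males. The beta sums were 11.98 to 14.75 CPM in female WT, 10.19 to 12.95 in female KO, 14.29 to 18.15 in male WT and 14.79 to 16.31 in male KO MEFs, and KO overlapped WT in each sex.

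Female and male MEFs were compared next, within each genotype. In WT MEFs 0 of 16 members were called in edgeR and in DESeq2, against 4.54% of all genes in edgeR. With an adjusted p under 0.05 and no limit on the fold change, 3 members passed, against 38.7% of all genes. *Pcdhgc5* (log2 fold change -0.23, edgeR adjusted p 0.0022), *Pcdhb22* (-0.80, adjusted p 0.0024) and *Pcdhb16* (-0.56, adjusted p 0.028) were lower in female WT MEFs. Female and male values did not overlap in 4 members, these and *Pcdhb20*, all lower in females, against 51.9% of all genes in either direction and 26.4% that were lower.

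*Pcdhb16* had 1.73, 1.15 and 1.34 CPM in female WT and 2.19, 2.18 and 1.86 in male WT MEFs. Its adjusted p ranged from 0.012 to 0.107 over 19 alternative fits and was under 0.05 in 14 of them. It rose above 0.05 when the fit used only the libraries compared and when any of female WT replicates 2 and 3 and male WT replicates 1 and 2 was left out. The adjusted p of *Pcdhb22* stayed between 6.0e-05 and 0.012, and that of *Pcdhgc5* between 8.0e-05 and 0.017.

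In KO MEFs 1 of 16 members was called, against 3.89% of all genes. *Pcdhb20*, the annotated pseudogene, had 0.340, 0.579 and 0.253 CPM in female KO and 0.745, 0.866 and 1.08 in male KO MEFs, or 11.4 to 27 against 44 to 56.7 expected counts. The log2 fold change was -1.20 ± 0.29 (SE), with an edgeR adjusted p of 0.0077. Its reads are partly shared, as its values were not whole in 8 libraries. The call was made in 2 of the 12 fits that left out 1 library each, with log2 fold changes of -1.62 to -0.96 and adjusted p of up to 0.034 over 19 alternatives. It was lost without any of female WT replicates 1, 2 and 3, female KO replicates 1 and 3, male WT replicates 1 and 2 and male KO replicates 1, 2 and 3, with only the libraries compared (edgeR adjusted p 0.034) and with the replicate block (0.012). In WT MEFs *Pcdhb20* was 0.631, 0.623 and 0.686 CPM in females and 0.921, 0.955 and 0.710 in males, with an edgeR adjusted p of 0.25.

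At an adjusted p under 0.05, *Pcdhb22* (-0.75, edgeR adjusted p 0.0038) and *Pcdhb18* (-0.62, adjusted p 0.045) were also lower in female KO MEFs, so that 3 members passed, again against 38.7% of all genes. The result for *Pcdhb18* passed in 7 of 19 alternatives, with an adjusted p of up to 0.136, and missed 0.05 with the replicate block (edgeR adjusted p 0.072) and with only the libraries compared (0.086) among others. Values did not overlap in 8 of 16 members, all lower in females, against 50.2% of all genes in either direction and 25.7% that were lower. *Pcdhb22* was below every male library in every female library of the same genotype. Each sex differed in depth and in markers of other cell types beside these results. Macrophage markers were higher in female MEFs in 9 of 9, epithelial markers in 4 of 7 in WT and 1 of 7 in KO, glial and neural crest markers in 4 of 7 in each genotype, neuronal markers in 2 of 7 in WT and 4 of 7 in KO, and skeletal muscle markers in 2 of 8 in WT and 4 of 8 in KO. When single libraries were left out, these counts ranged in WT and in KO from 6 to 9 and 5 to 9 for macrophage, 1 to 4 and 0 to 1 for epithelial, 0 to 5 and 0 to 4 for glial and neural crest, 1 to 2 and 1 to 4 for neuronal, and 0 to 2 and 0 to 4 for muscle markers. Of the fibroblast markers 1 of 10 was higher in WT and 0 in KO, and of the endothelial markers 0 of 5 in either. Fibroblast estimates were negative for 6 of 10 in WT (median log2 fold change -0.33, range -1.04 to 3.95) and for 7 of 10 in KO (-0.29). At an adjusted p under 0.05, 2 fibroblast markers were lower and 1 higher in WT. In KO 3 were lower and 2 higher, against 38.7% of all genes in either direction in each genotype. Summed levels in female and male libraries were 74.6 to 129 against 40.8 to 53.7 CPM for epithelial, 17.3 to 45.0 against 9.55 to 16.7 for glial and neural crest, and 68.2 to 108 against 51.4 to 76.7 for neuronal markers. Those of the muscle list overlapped, at 87.0 to 146 and 80.1 to 146 CPM, and no listed marker was at 0 in all 12 libraries. Their part in the result was not tested, and fewer cells of a type and less RNA per cell cannot be told apart in bulk samples. Sex and embryo line cannot be told apart either.

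Genes that act on the clusters were examined as a list. Of the CTCF, cohesin and silencing factors, 19 were tested and 0 were called in any contrast in edgeR. Of all genes 4.54% were called between the sexes in WT and 3.89% in KO. For the KO the log2 fold changes of the factors were -0.18 to 0.13 in females and -0.06 to 0.11 in males. Between the sexes 16 of the 19 had lower estimates in female MEFs in each genotype, against 50.6% of all genes in WT and 50.5% in KO. Their median log2 fold change was -0.16 in WT and -0.15 in KO. These medians were -0.09 without male WT replicate 3 and -0.10 without male KO replicate 3. At an adjusted p under 0.05, 6 were lower in WT and 7 in KO and 0 were higher, against 38.7% of all genes in either direction. The cohesin subunit gene *Smc1a* was among them, with log2 fold changes of -0.30 and -0.25 (edgeR adjusted p of 0.00085 and 0.0025). *Ctcf* was at 62.3 ± 1.85 CPM in female WT, 63.1 ± 1.73 in female KO, 60.1 ± 1.98 in male WT and 62.0 ± 7.49 in male KO MEFs. *Smchd1*, which keeps the clusters methylated, was at 109 ± 1.83, 113 ± 4.48, 125 ± 12.2 and 129 ± 19.1 CPM in the same order. The DNA methyltransferase gene *Dnmt3b* was near 2 CPM in all groups, at 1.92 ± 0.184, 1.98 ± 0.0568, 2.18 ± 0.121 and 2.09 ± 0.328.

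The 16 genes of protocadherin signalling and processing gave 0 calls in any contrast in edgeR. Between the sexes 4.54% of all genes were called in WT and 3.89% in KO. At an adjusted p under 0.05, 2 of the 16 were higher and 3 lower in female WT MEFs. In female KO MEFs 2 were higher and 2 lower, against 38.7% of all genes in either direction in each genotype. Of the non-clustered protocadherins, which are single genes outside the 3 clusters, 11 were tested and 0 were called for the KO. In females 6 of 11 estimates were negative, with a median log2 fold change of -0.03. In males and in the average over the sexes 10 of 11 were negative, with medians of -0.25 and -0.18. Over all genes 50.1%, 52.3% and 51.2% were negative. With single libraries left out the medians ran from -0.11 to 0.01, from -0.35 to -0.09 and from -0.26 to -0.12 in the same order. *Pcdh17* was higher in female MEFs, with a log2 fold change of 1.38 in WT and 1.38 in KO (edgeR adjusted p of 0.00020 and 0.00022), and *Pcdh1* was higher in female KO MEFs by 1.06 (adjusted p 0.0013).

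The neighbours of the clusters were also examined, being the 4 tested genes that lie between the first and last member and the 3 nearest tested genes on each side. None of these 10 genes was called in any contrast in edgeR, while 4.54% of all genes were called between the sexes in WT and 3.89% in KO. At an adjusted p under 0.05, 0 passed for the KO and 3 in each comparison of the sexes, against 38.7% of all genes. *Hars*, a histidyl-tRNA synthetase gene, was higher in female MEFs by 0.27 on the log2 scale in WT and 0.29 in KO (edgeR adjusted p of 0.00020 and 0.00013). For the KO, the 6 flanking genes (*Hars*, *Hars2*, *Zmat2*, *Diap1*, *Hdac3* and *Fchsd1*) had log2 fold changes of -0.07 to 0.10 in females and -0.06 to 0.06 in males. *Taf7*, which encodes a subunit of the general transcription factor TFIID and lies between beta and gamma, had 6.27 ± 0.843 CPM in female WT, 5.35 ± 0.651 in female KO, 6.45 ± 0.352 in male WT and 6.29 ± 0.813 in male KO MEFs.

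Hi-C gave a readout of the same stretch in other cells, the muscle line C2C12, and in WT chromatin only. Contact was expressed as the corrected signal of a pair of 40 kb bins over the mean of all pairs at the same distance on the chromosome. Over the 276 pairs of the 24 bins that span the clusters the mean ratio was 0.897, of which 42 pairs had no contact. Windows of this size along the chromosome had a median of 0.963, and 66.5% of 2178 windows were higher. The replicates were pooled, so no error can be given. The median over pairs was 0.788. The ratio was 0.995 when pairs without contact were left out of both the observed and the expected signal.

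Contact was then taken by cluster. Within clusters the ratio was 0.975 for alpha, 0.792 for beta and 1.43 for gamma. Between clusters it was 0.717 for alpha to beta, 0.438 for alpha to gamma and 1.51 for beta to gamma. The region met its flanks of equal length at 0.367 on the left and 0.392 on the right, although most of those pairs, 363 and 327 of 576, had no contact.

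The beta to gamma contact was concentrated at the end of the beta cluster. The bin at chr18:37640001-37680000, which holds all or part of *Pcdhb16* to *Pcdhb22*, met the 6 gamma bins at a mean ratio of 3.64, with a lowest value of 2.73 and a highest of 5.71. The bin before it (chr18:37600001-37640000, *Pcdhb13* to *Pcdhb16*) had a mean of 2.81. The other 6 beta bins had means of 0.439 to 1.17. The bin with the highest contact held 7 beta genes with a summed level of 10.3 CPM in MEFs, against 0.00453 to 2.58 CPM for 1 to 4 genes in the other bins with a beta gene, where genes that cross a border count in both bins. Per gene its mean was 1.47 CPM, below the 2.21 CPM of the last beta bin, which holds only a part of *Pcdhb22* and met gamma at 1.17. The contact map and the RNA come from different cells, and the bins were singled out after the map was seen. Towards the alpha cluster the mean ratio was 1.13 for the first beta bin and 0.443 for the bin of *Pcdhb16* to *Pcdhb22*.

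**Figure D5:**
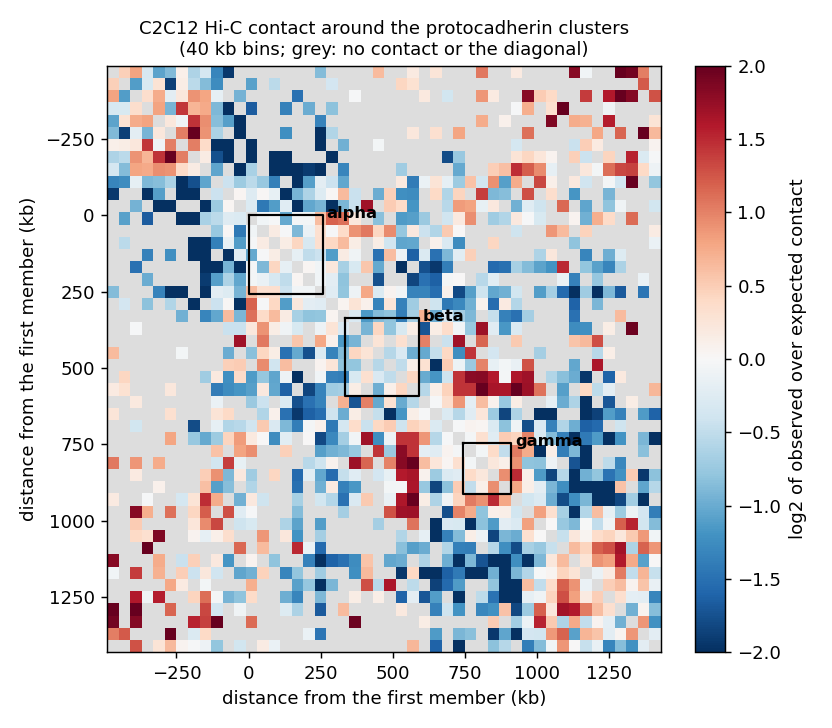
Log2 of observed over expected Hi-C contact in C2C12 cells for pairs of 40 kb bins, against the distance in kb from the first member, with the 3 clusters framed. A red block joins the end of the beta frame with the gamma frame, where single bin pairs reach 5.71 times the expected signal, and the space between alpha and gamma is mostly blue or without contact.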

How the data were processed

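The authors mapped RNA-seq reads with Bowtie 2, quantified them with RSEM 1.2.29 and deposited expected counts per gene, unscaled. For Hi-C they deposited an iteratively corrected contact signal of the pooled C2C12 replicates in 40 kb bins (HiC-Pro, mm9). CTCF ChIP-seq samples were not analysed here. All 37310 gene identifiers were found in the mm9 annotation, which gave coordinates and exon lengths.

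Rounded expected counts entered the quasi-likelihood test of edgeR 4.0.16 in R 4.3.3, with TMM, filterByExpr, 1 mean per group and Benjamini-Hochberg adjustment over 15387 genes, at the thresholds of the study. On simulated counts of 15387 genes for female KO against WT, 184 of 200 genes changed 4-fold were called, and 0 others. The changed genes were drawn at random from all tested genes. The result therefore does not show how often a low member or a smaller change would be called. Intervals of 95% used 8 residual degrees of freedom. The members and the lists were chosen with earlier results of these data known. Genes named with values were the 5 highest members of each cluster, the C-type isoforms, members called and the member with the smallest p in each contrast. *Firre*, *Ctcf*, *Smchd1* and *Dnmt3b*, neighbours, and called genes of the lists other than cell type markers were named too. *Pcdhb2*, *Pcdhb5* and *Pcdhb21*, and genes named for sequence, whole counts or overlap, were added after their values were seen. Replicate numbers were taken as pairing male WT and KO libraries only, where deviations from the group means correlated at 0.24 to 0.50. Female WT and KO pairs gave -0.26 to -0.13. The main fit used no replicate block, so its p-values and intervals for the male KO leave this pairing out. Alternatives covered tool, scaling, filter, samples, block and single libraries. Promoter sequences of members were not used here.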

Additional observations from a re-analysis of the deposited data

How the results depend on the processing

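For the KO, 0 members were called under every alternative run. Against male KO MEFs, the call of *Pcdhb20* in female KO MEFs was absent (0 members) with only the libraries compared and with the replicate block, and 0 to 1 members were called when single libraries were left out. The replicate block changed no other call of a member at these thresholds. At an adjusted p of 0.05 it took *Pcdhb18* in female against male KO MEFs to 0.072 and *Pcdhb17* to 0.046. Without a limit on the fold change, 3 members passed an adjusted p of 0.05 in each comparison of the sexes. The median log2 fold change of members in female against male WT MEFs, -0.35, was -0.21 with DESeq2 and -0.23 without a filter, over 25 members. Leaving out single libraries gave -0.39 to -0.23 for this median, -0.52 to -0.35 for female against male KO, -0.33 to -0.16 for the female KO effect, -0.13 to 0.080 for the male KO effect and -0.30 to -0.061 for their difference. It gave -0.28 to 0.39 for the male alpha ratio of KO to WT, -0.10 to 0.57 for the WT alpha ratio of female to male, and -0.11 to -0.028 and -0.29 to -0.20 for the gamma ratios. The Hi-C ratio of 0.897 became 0.995 with absent pairs left out of both the observed and the expected signal, and 0.788 as a median. The ratio of gamma to *Pcdhb17* rose from 10.0 to 50.2 with the longest transcript. The causes were not tested, other than that those last settings change the pairs or lengths counted. Leaving out single libraries for the marker lists was chosen after the data were seen. Counts were low in the 9 untested members and the beta genes below 1 CPM, and values from counts carry counting error besides the spread between libraries.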
